A study of Mus musculus with 10 samples.

Results

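Cells labelled cardiomyocytes, differentiated from mouse embryonic stem (ES) cells and given vehicle alone, were compared with undifferentiated ES cells by sequencing of polyadenylated RNA. The comparison rests on 4 of the 10 libraries of the series, 2 for each group, assigned by their labels, and it covers all genes of the count table. The ES group comprised untreated parental cells of the line C57BL/6N-C2, grown in serum replacement with leukaemia inhibitory factor (LIF). The other group came from a derivative of that line, resistant to G418, that carries a plasmid in which the promoter of the cardiac factor gene Nkx2.5 drives puromycin resistance and eGFP. Those cells were moved to medium with foetal bovine serum and without LIF, exposed in turn to Noggin and BMP4, selected with puromycin, followed to day 14 for beating cells, and kept in DMSO, the solvent of the other arms, for 24 h. The remaining 6 libraries, from such cells given dioxin (TCDD), entered the model for the estimate of spread. They also entered the choice of genes tested, the scaling of libraries and the correction for GC content given below. The groups therefore differ in differentiation, plasmid, selection, serum and LIF together, and these cannot be told apart. Puromycin selects on the Nkx2.5 promoter, so the selected trait is the activity of a transgene and not the presence of sarcomeres. Separate cultures are not described for the replicates in the labels, so a p-value here speaks only of the scatter among libraries, which could be technical.

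Mouse ES cells in LIF sit in the naive state of pluripotency, in which factors such as Klf4, Tbx3, Tfcp2l1 and Esrrb act beside the core factors Pou5f1 (Oct4), Sox2 and Nanog. On the way out of that state the embryo's epiblast passes through a formative and then a primed phase, marked by Fgf5, Otx2, Pou3f1 and the de novo DNA methyltransferases, before Wnt, Nodal and BMP signals set up the primitive streak and mesoderm. Cardiomyocytes arise from that mesoderm through Nkx2-5, Gata4 and Tbx5 and end with the sarcomere proteins of the contracting cell.

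Each change was read beside the GC content of the transcript, because the ES replicates differed along it. The range that GC content spans is shown by the start of the coding sequence of a pair of genes that both rose, Lpar4, which encodes a receptor for lysophosphatidic acid, and Pou3f1, a POU-domain factor of the epiblast. The first 120 coding bases are given 5′ to 3′ from GENCODE M21 transcripts of GRCm38, with G and C in capitals. Lpar4 lies on chromosome X, + strand, and its longest transcript has 33.7% G and C (35.8% in the bases shown).
Lpar4: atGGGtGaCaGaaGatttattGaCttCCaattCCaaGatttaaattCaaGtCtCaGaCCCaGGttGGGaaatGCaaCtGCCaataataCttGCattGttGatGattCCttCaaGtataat
Pou3f1 lies on chromosome 4, + strand, and its longest transcript has 63.9% (80% in the bases shown).
Pou3f1: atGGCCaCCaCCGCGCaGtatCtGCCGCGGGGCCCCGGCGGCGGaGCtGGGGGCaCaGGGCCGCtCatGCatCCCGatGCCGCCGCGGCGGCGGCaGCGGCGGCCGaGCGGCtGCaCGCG
Pou3f1 read 3.46 and 4.41 CPM in the ES libraries and 108 and 111 CPM in the DMSO libraries. CPM is the count scaled to the total counts of the library times its TMM scaling factor from edgeR. The factor was 1.015 and 0.8547 in the ES libraries and 1.049 and 1.06 in the DMSO libraries. CPM values therefore do not sum to the same total in each library. The log2 fold change of Pou3f1 was 4.79 without and 4.79 with an offset for GC content. Lpar4 read 0.354 and 0.147 CPM in the ES libraries and 18.8 and 22.3 CPM in the DMSO libraries. Its log2 fold change was 6.30 without the offset and 4.56 with it (adjusted p = 0.000243 and 2.7e-05). In both genes the DMSO libraries lay far above both ES libraries. The estimate for the AT-rich transcript was smaller with the offset, and without ES replicate 1 it was 7.08.

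The ES libraries contained 22230301 and 23896260 counts and the DMSO libraries 31192459 and 19744037. Over 10 equal groups of genes ordered by GC content, ES replicate 2 minus ES replicate 1 had a median of −1.3 log2 units in the group with the lowest GC (median 39.9%) and 0.628 in that with the highest (median 59.9%). DMSO replicate 2 minus DMSO replicate 1 stayed between −0.0154 and 0.022. The chi-square statistic between replicates was 196 per gene for ES cells and 3.23 for DMSO cells, so both pairs differed by more than counting error, and the ES pair far more.

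**Figure D1:**
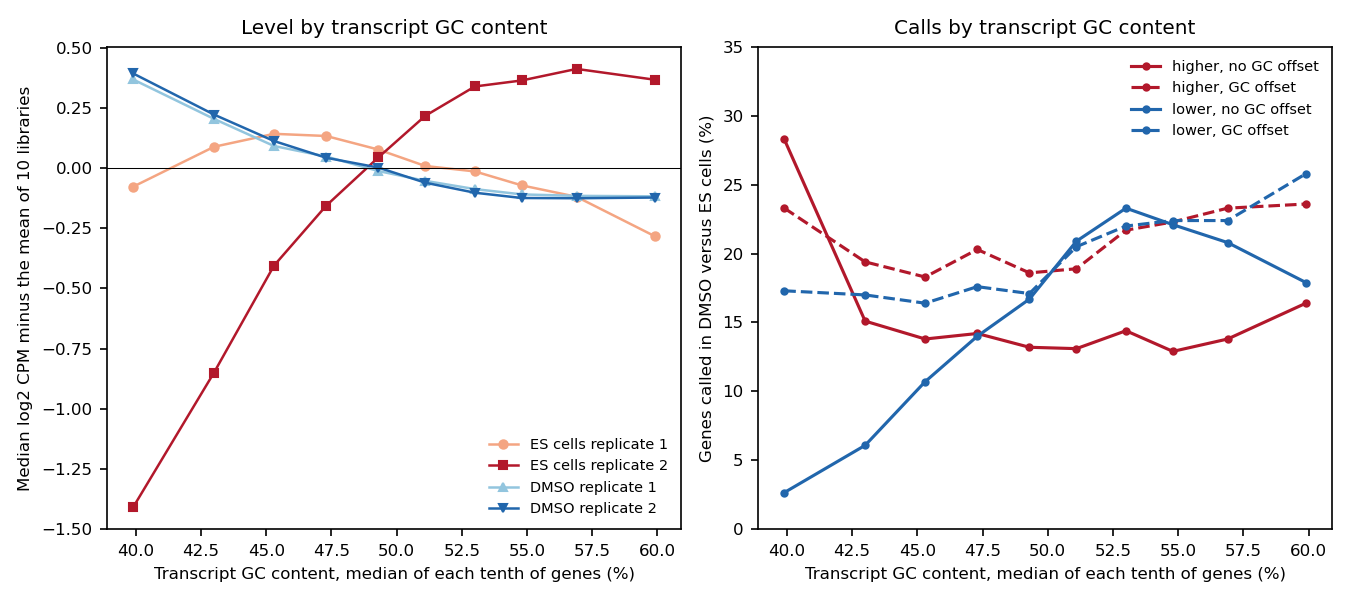
Left, median log2 CPM of each library minus the mean of all 10 libraries, for 10 groups of genes ordered by transcript GC content (x axis, % G and C); right, percent of the genes in each group called higher or lower in DMSO than in ES cells, with (dashed) and without (solid) the GC offset. ES replicate 2 bends from −1.41 at low GC to above 0.3 at high GC while the DMSO libraries lie together, and the excess of rises among AT-rich genes (28.3% against 2.65% falls) is smaller with the offset (23.3% against 17.3%).

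Of 15175 genes tested, 2349 were called higher (15.5%) and 2348 lower (15.5%) in DMSO cells, which is 31.0% in all, at an adjusted p under 0.05 in edgeR's quasi-likelihood test. The median log2 change over all genes was 0.00768. In the group of genes with the lowest GC content, 28.3% were called higher and 2.65% lower. In the other groups 12.9 to 16.4% were called higher and 6.08 to 23.3% lower. With the GC offset 40.7% of genes were called, 3174 higher (20.9%) and 3003 lower (19.8%). Among the 4697 calls, 4439 were made in the same direction with the offset (29.3% of genes tested, 14.4% higher and 14.8% lower), none was made in the opposite direction, and 258 ended. The 163 rises that ended were AT-rich, with a median GC content of 39.9%, and the 95 falls that ended had a median of 53.9%, against 50.2% over all genes tested. The offset would also take away a true difference between the groups that follows GC content.

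Calls also depended on single libraries. Without ES replicate 2, 1909 genes were called higher and 1572 lower, and without ES replicate 1 it was 4134 and 3602. Without DMSO replicate 1 the counts were 1250 and 704, and without DMSO replicate 2 they were 1221 and 681. The remaining library of the group was then assumed to vary like the other groups. Calls that were made in the same direction with the offset and with each of the 10 libraries left out in turn are written below as calls that held. These were 1703 calls (11.2% of genes tested), 1104 rises (7.28%) and 599 falls (3.95%). Counts of a gene list below are to be read beside these shares and the 15.5% of all genes tested called each way. A gene named below as having risen or fallen held in this sense unless the text says otherwise. Its ES and DMSO libraries did not overlap, as in every call made with and without the offset (2186 rises and 2253 falls). The lack of overlap is therefore no support beyond the call. A value in brackets after the levels is the log2 fold change, DMSO minus ES cells. An adjusted p beside it, where given, is from edgeR's quasi-likelihood test. SE is the size of the change divided by the square root of that test's F statistic, not a spread between replicates.

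The genes that changed most ran from secreted matrix factors to membrane transporters. Calls made with and without the offset included 1166 rises and 459 falls of at least 4-fold, and 282 rises and 60 falls of at least 16-fold. Thbs1, the gene of the matrix glycoprotein thrombospondin 1, read 1.37 and 0.98 CPM in the ES libraries and 142 and 170.4 CPM in the DMSO libraries (log2 fold change 7.04 ± 0.29 SE, adjusted p = 6.29e-06). Cxcl12, a chemokine that guides migrating cells, read 0.177 and 0.196 CPM in ES cells and 23.8 and 21.1 CPM in DMSO cells (6.88). Enpp2, which makes lysophosphatidic acid, had 2 and 2 counts in the ES libraries and 1181 and 829 in the DMSO libraries, which is 403 times the ES level (95% counting interval 157 to 1478). Intervals of this kind cover the counting error of the ES counts alone. Has2, which makes hyaluronan, had 0 and 0 counts in the ES libraries and 161 and 135 in the DMSO libraries, at least 79.1-fold higher against a floor of 3 counts over the ES group. Prss23, a secreted protease, had 4 and 1 counts in the ES libraries and 506 and 324 in the DMSO libraries, which is 133 times the ES level (95% counting interval 57 to 409.6). Its fitted change was 8.17 without ES replicate 1 and 6.41 without ES replicate 2. These 5 genes, which encode secreted proteins or an enzyme of the cell surface, stood near 0 in both ES libraries.

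Among abundant genes, with a mean of at least 200 CPM in a group, the rises included the ubiquitin ligase adaptor Klhl13, the growth factor Igf2 and the endocytic receptor Lrp2. Klhl13, on the X chromosome, read 42.1 and 27 CPM in the ES libraries and 868 and 859.7 CPM in the DMSO libraries, a change of 4.64 (4.07 with the offset, 3.89 with the median GC content of its transcripts). Emb, which encodes embigin, a partner of monocarboxylate transporters, rose from 42.2 and 29.5 CPM to 282 and 279.6 CPM (2.97). Lrp2 rose from 34 and 28.1 CPM to 197 and 218 CPM (2.74). In each of them the DMSO replicates were close together and at least 4 times the higher ES library. Atrx, a chromatin remodeller whose transcript is AT-rich (39.5% G and C), stood at 47 and 11 CPM in ES cells and 235 and 258 CPM in DMSO cells. Its change of 3.09 became 2.30 with the offset, 4.49 without ES replicate 1 and 2.39 without ES replicate 2, and the call ended when DMSO replicate 2 was left out (adjusted p = 0.0535).

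The deepest falls included a signalling adaptor, a transporter, an enzyme and a germ cell factor. Grb10, an imprinted adaptor of insulin and growth factor receptors, read 302 and 263 CPM in the ES libraries and 9.05 and 9.18 CPM in the DMSO libraries (log2 fold change −4.95 ± 0.21 SE, adjusted p = 6.29e-06). Slc13a5, a citrate transporter, read 12.4 and 15.7 CPM in ES cells and 0.336 and 0.191 CPM in DMSO cells (−5.65). Hal, which breaks down histidine, fell from 49.9 and 66.8 CPM to 2.44 and 2.29 CPM (−4.62). Sohlh2, a factor of germ cell differentiation, fell from 139.8 and 169.9 CPM to 7.61 and 6.64 CPM (−4.44). Laptm5, a lysosomal membrane protein best known from blood cells, fell from 82.7 and 139 CPM to 4.89 and 4.97 CPM (−4.49). These genes were low in both DMSO libraries and high in both ES libraries. The cytochrome gene Cyp2b23 also fell (−4.64), although it has close relatives with which it may share reads.

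Abundant genes that fell included signalling adaptors, transporters and mitochondrial proteins. Parvb, a focal adhesion protein, fell from 192 and 314 CPM to 21.1 and 24.1 CPM (−3.48). Slc7a1, a transporter of cationic amino acids, fell from 225 and 225 CPM to 42 and 44.4 CPM (−2.38). The water and glycerol channel gene Aqp3 fell from 176 and 249 CPM to 42.4 and 42.7 CPM (−2.32). Htra1, a secreted protease, fell from 182 and 285 CPM to 34.7 and 36 CPM (−2.72). Ucp2, a carrier of the mitochondrial inner membrane, fell from 332 and 616 CPM to 95.9 and 84.5 CPM (−2.39). The ES replicates of Htra1 and Ucp2 were apart, with replicate 2 higher, and both lay above the DMSO libraries. Pck2, the mitochondrial enzyme that makes phosphoenolpyruvate, read 187 and 331 CPM in the ES libraries and 44.2 and 44.1 CPM in the DMSO libraries (−2.55).

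**Figure D2:**
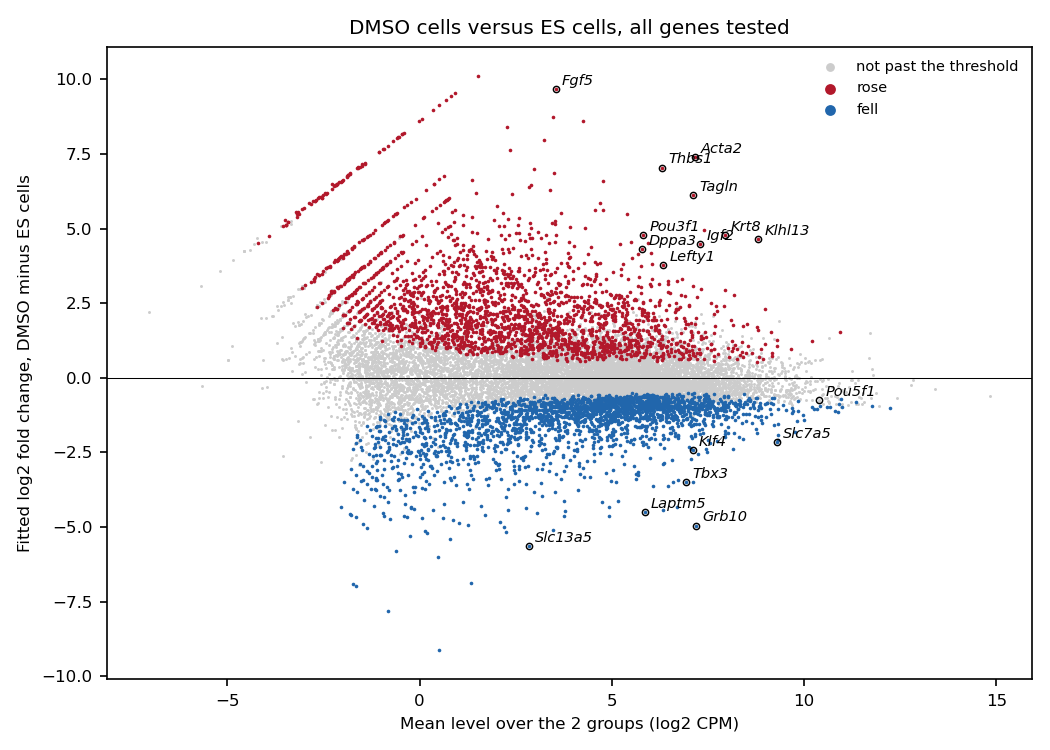
Fitted log2 fold change (y axis, DMSO minus ES cells) against mean level (x axis, log2 CPM over the 2 groups) for the 15175 genes tested, with 2349 that rose in red and 2348 that fell in blue. The diagonal rows of points at the upper left are genes with a few or no ES counts, whose fitted change depends on the prior count; named genes such as Acta2 and Grb10 lie far from the line of no change.

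The examples most moved by GC content show what the offset does to single genes. The zinc finger gene Zfp979 (34.6% G and C) read 16.3 and 10.9 CPM in the ES libraries and 115 and 116 CPM in the DMSO libraries. Its rise of 3.09 became 1.27 (adjusted p = 0.0051). Another zinc finger gene, Zfp987 (34.9%), rose from 7.58 and 6.12 CPM to 120.3 and 126 CPM, and its estimate went from 4.17 to 2.37. Both belong to a family of similar genes among which reads may be split. With the median GC content over a gene's transcripts in place of the longest transcript the values were 1.44 and 3.49, so the size for Zfp987 rests on which transcript is taken. Lsm5, a subunit of an RNA-binding ring, read 37.8 and 29.5 CPM in the ES libraries and 76.5 and 64.3 CPM in the DMSO libraries. Its rise (1.07, adjusted p = 0.0137) turned to −0.91 with the offset (adjusted p = 0.0886), and the call also ended when either DMSO library was left out (adjusted p from 0.0518 to 0.105). The largest shifts in the other direction were smaller. Aldh1l1, a folate enzyme with 54.4% G and C, fell from 15.9 and 30.2 CPM to 3.91 and 3.44 CPM, and its estimate went from −2.64 to −2.33.

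The identity of the DMSO cells was checked against markers of heart muscle and of pluripotency. Of 12 cardiomyocyte markers 11 were tested, 5 rose (45.5%) and 0 fell, against 15.5% each way of all genes tested, and 2 rises held. The summed level of the 12 was 25.9 and 19.4 CPM in the ES libraries and 47.7 and 52.5 CPM in the DMSO libraries. Of 8 pluripotency markers 1 rose (12.5%) and 2 fell (25%), against the same 15.5%, and 1 of each held. The sum of the 8 stood at 4507 and 5931 CPM in ES cells and at 3504 and 3469 CPM in DMSO cells. None of the 12 was at 0 in all 4 libraries, and 1 exceeded a mean of 10 CPM in DMSO cells. Low levels of defining cardiomyocyte transcripts beside abundant pluripotency transcripts go against the label, and the cells are called DMSO cells here. Nkx2-5 itself, whose promoter was used for selection, stood at 0.399 and 0.882 CPM in ES cells and 1.01 and 1.05 CPM in DMSO cells (log2 fold change 0.69 ± 0.46 SE, adjusted p = 0.275). In bulk RNA a smaller number of cells of a type and less RNA per cell cannot be told apart. What share of the cells was differentiated was not tested.

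Naive pluripotency genes were mostly lower in DMSO cells. Of 20 tested, 13 fell (65%) and 2 rose, with a median change of −1.40, and 10 of the falls and both rises held. Tbx3, a T-box factor that sustains self-renewal, read 246 and 199 CPM in the ES libraries and 19.4 and 20.3 CPM in the DMSO libraries (log2 fold change −3.48 ± 0.25 SE, adjusted p = 3.66e-05). The zinc finger factor gene Klf4 read 257 and 206 CPM in the ES libraries and 40.3 and 46.1 CPM in the DMSO libraries (log2 fold change −2.42 ± 0.21 SE, adjusted p = 9.67e-05). Klf5, its relative, fell from 192 and 140.2 CPM to 23.5 and 25.2 CPM (−2.77). Each of these 3 genes was lower in both DMSO libraries by a wide margin and still measurable. Tfcp2l1, which joins LIF signals to the naive network, read 492 and 293 CPM in the ES libraries and 96.5 and 101 CPM in the DMSO libraries (log2 fold change −1.99 ± 0.28 SE, adjusted p = 0.00114). Nr0b1, an orphan nuclear receptor, fell from 133 and 117 CPM to 28.3 and 25.9 CPM (−2.21). Nlrp4f, a gene of an oocyte-expressed family, fell from 113 and 68.4 CPM to 7.88 and 9.22 CPM, with a change of −3.40 that was −4.04 with the offset.

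The exceptions within the naive list rose. Dppa3, a maternal and germline factor that protects DNA from methylation changes, read 5.85 and 4.65 CPM in the ES libraries and 109 and 101 CPM in the DMSO libraries (log2 fold change 4.32 ± 0.47 SE, adjusted p = 0.000286). The second exception, chosen after its values were seen, was Spic, an ETS factor, at 1.02 and 0.833 CPM in ES cells and 5.81 and 5.07 CPM in DMSO cells (2.55, 1.93 with the offset). In both, the DMSO libraries lay above both ES libraries. Zfp42 (Rex1), a common reporter of the naive state, was 90.4 and 43.1 CPM in ES cells and 68.4 and 68.8 CPM in DMSO cells, where the DMSO values lay between the ES replicates (log2 fold change 0.04 ± 0.32 SE, adjusted p = 0.936). Processed copies of Dppa3, Nanog and Pou5f1 exist in the genome, so some reads may belong to copies.

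Core pluripotency genes stayed abundant in DMSO cells. Of 14 tested, 3 rose (21.4%), 2 fell (14.3%) and 9 did not pass, shares near the 15.5% of all genes called each way. The median change was 0.04, and the rise of Lin28a alone held. Pou5f1 stood at 1272 and 2089 CPM in ES cells and 1039 and 985 CPM in DMSO cells. It did not pass (log2 fold change −0.73 ± 0.26 SE, adjusted p = 0.0635), while with the offset it did (−0.46, adjusted p = 0.0413). With the median GC content of its transcripts in the offset, Pou5f1 did not pass (−0.44, adjusted p = 0.0577). The change of Pou5f1 was −1.04 without ES replicate 1 and −0.33 without ES replicate 2. Sox2 stood at 461 and 353 CPM in ES cells and 438 and 451 CPM in DMSO cells (log2 fold change 0.13 ± 0.20 SE, adjusted p = 0.653), with both DMSO values inside the range of the ES pair. Nanog was lower in DMSO cells, at 726 and 684 CPM in the ES libraries and 447 and 435 CPM in the DMSO libraries (log2 fold change −0.68 ± 0.19 SE, adjusted p = 0.0274). Its call ended when either DMSO library or either TCDD library of 24 or 96 h was left out (adjusted p from 0.0532 to 0.189). Lin28a, an RNA-binding protein that blocks let-7 microRNAs, rose from 121 and 118 CPM to 264 and 264 CPM (log2 fold change 1.14 ± 0.22 SE, adjusted p = 0.00487).

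In 2 other core members the ES replicates stood far apart. Rif1, which controls replication timing, read 95.3 and 18.8 CPM in the ES libraries and 418 and 458 CPM in the DMSO libraries (2.94, 2.16 with the offset), and L1td1, an RNA-binding protein of ES cells, read 207 and 53.4 CPM in the ES libraries and 424 and 460.1 CPM in the DMSO libraries (1.76, adjusted p = 0.0406). Without ES replicate 1 Rif1 was at 4.55 and without ES replicate 2 at 2.20, and its call ended when DMSO replicate 2 was left out (adjusted p = 0.0534). L1td1 was at 3.05 without ES replicate 1 and at 1.09 without ES replicate 2, and its call ended when ES replicate 2, either DMSO library or either TCDD library of 72 or 96 h was left out (adjusted p from 0.0566 to 0.14). Dppa5a, an abundant RNA-binding protein of ES cells, read 1981 and 3007 CPM in the ES libraries and 1440.0 and 1301 CPM in the DMSO libraries (−0.86), and its call ended when ES replicate 2, either DMSO library or either TCDD library of 96 h was left out (adjusted p from 0.0515 to 0.178).

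Most formative and primed epiblast genes tested rose. Of 17 tested, 11 rose (64.7%) and 0 fell, with a median change of 2.09, and 10 of the rises held. Fgf5, the classic growth factor of the postimplantation epiblast, had 0 and 1 counts in the ES libraries and 749 and 495 in the DMSO libraries, which is 997 times the ES level (95% counting interval 179 to 39370.0). That level is the 1 count of ES replicate 2, and the fitted change was 9.68, against 8.76 without ES replicate 1. In CPM it stood at 22.9 and 23.6 in the DMSO libraries. Otx2, a homeobox factor of the formative state, rose from 7.8 and 10.4 CPM to 39.6 and 41.5 CPM (log2 fold change 2.15 ± 0.21 SE, adjusted p = 0.000141). Sox3 rose from 0.62 and 1.13 CPM to 9.87 and 12.3 CPM (3.67). The de novo DNA methyltransferase genes were abundant members. Dnmt3a read 153 and 162 CPM in the ES libraries and 514 and 529 CPM in the DMSO libraries (log2 fold change 1.73 ± 0.24 SE, adjusted p = 0.00107). Dnmt3b read 189.7 and 225 CPM in the ES libraries and 659 and 683 CPM in the DMSO libraries (log2 fold change 1.69 ± 0.21 SE, adjusted p = 0.00051). Dnmt1, the maintenance enzyme and no member of this list, went the other way, from 565 and 626 CPM to 325 and 344 CPM (−0.83), but its call ended when either DMSO library was left out (adjusted p from 0.0878 to 0.111).

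**Figure D3:**
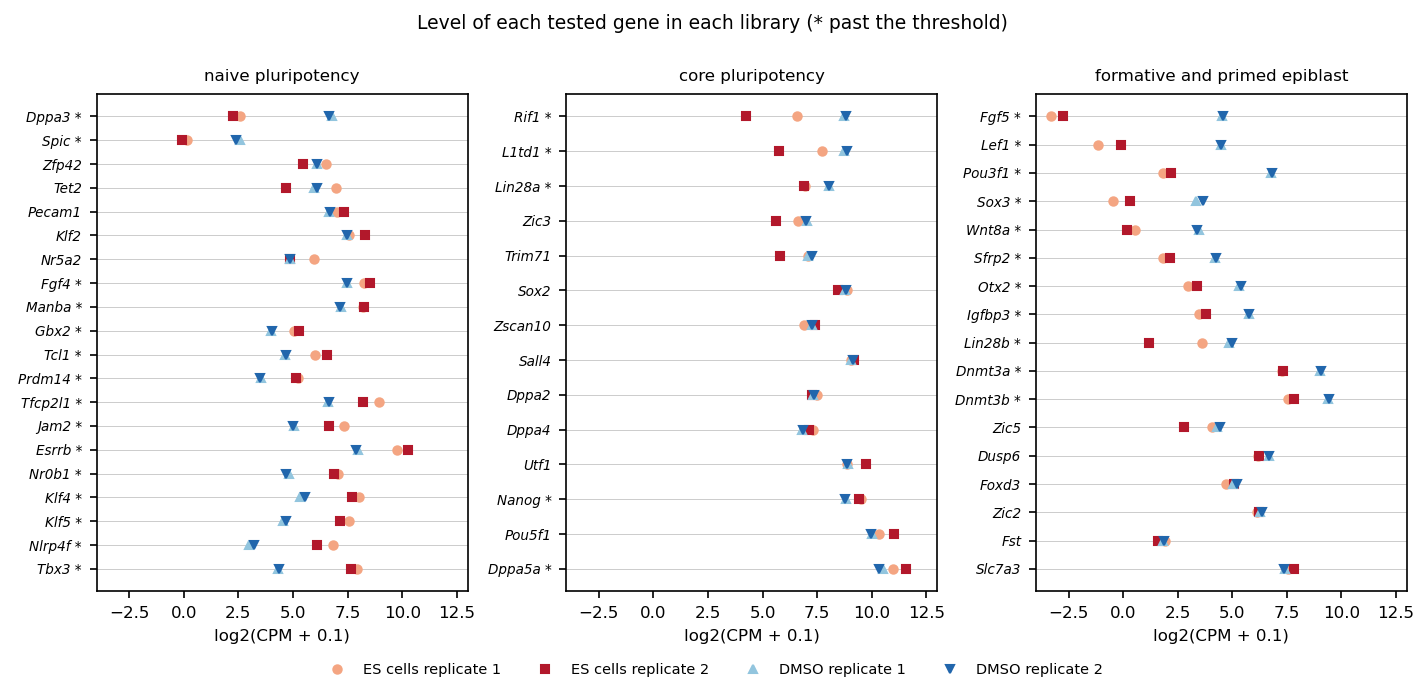
Level of each tested member of 3 lists in each library (x axis, log2 of CPM + 0.1), with ES replicates as circles and squares and DMSO replicates as triangles; an asterisk marks an adjusted p under 0.05. The DMSO triangles lie left of the ES symbols for most naive genes, close to them for most core genes, and right of them for most formative genes.

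Genes that respond to LIF through Stat3 moved in both directions. Of 11 tested, 4 fell (36.4%) and 2 rose (18.2%, near the 15.5% of all genes), with a median change of −0.10. Of these calls 3 falls and 1 rise held. Socs3, the feedback inhibitor that Stat3 induces, read 149 and 236 CPM in the ES libraries and 18.1 and 17.5 CPM in the DMSO libraries (log2 fold change −3.43 ± 0.29 SE, adjusted p = 8.63e-05). Stat3 itself fell from 116 and 137 CPM to 44.2 and 46.5 CPM (−1.48). Bcl3, a nuclear partner of NF-kappaB, fell from 49.5 and 88.5 CPM to 12.9 and 12.2 CPM (−2.46). Lif, the cytokine gene, rose from 9.22 and 9.6 CPM to 20.5 and 21.7 CPM (1.17). The DMSO cells were kept without added LIF, and their own Lif transcript was higher. The other pair of calls did not hold. Pim3, a kinase, read 135 and 234 CPM in the ES libraries and 103 and 100.3 CPM in the DMSO libraries (−0.86), and its call ended when ES replicate 2, either DMSO library or either TCDD library of 24, 72 or 96 h was left out (adjusted p from 0.0533 to 0.282). Osmr, a cytokine receptor, had 0 and 1 counts in the ES libraries and 19 and 5 in the DMSO libraries, and its call ended when ES replicate 1 or DMSO replicate 1 was left out (adjusted p from 0.0762 to 0.187).

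Wnt ligand and target genes rose more often than they fell. Of 24 tested, 15 rose (62.5%), 3 fell and 6 did not pass, with a median change of 1.90, and 11 rises and 1 fall held. Their summed level was 480.4 and 543 CPM in ES cells and 509 and 524 CPM in DMSO cells, so the groups overlapped. Lef1, the nuclear partner of beta-catenin, read 0.354 and 0.833 CPM in the ES libraries and 22.5 and 22.4 CPM in the DMSO libraries (5.24, 5.96 without ES replicate 2). Among the ligands, Wnt4 rose from 0.753 and 0.735 CPM to 8.31 and 8.36 CPM (log2 fold change 3.48 ± 0.32 SE, adjusted p = 0.000118). Wnt3, which starts the primitive streak, rose from 0.222 and 0.539 CPM to 7 and 7.12 CPM (4.22, 4.96 without ES replicate 2). Wnt5a, a ligand that acts without beta-catenin in many tissues, had 4 and 2 counts in the ES libraries and 72 and 53 in the DMSO libraries, which is 16.7 times the ES level (95% counting interval 7.67 to 45.5). The 3 ligand genes were near or under 1 CPM in both ES libraries. Axin2, a feedback inhibitor and the usual reporter of beta-catenin activity, rose from 4.61 and 4.55 CPM to 25.3 and 29.9 CPM (log2 fold change 2.59 ± 0.28 SE, adjusted p = 0.000254). Sfrp2, a secreted antagonist, rose from 3.41 and 4.31 CPM to 18.1 and 19.3 CPM (2.27). These 6 genes were under 5 CPM in both ES libraries. Wnt3a, the ligand gene of the late streak, went the other way, from 2.08 and 3.48 CPM to 0.581 and 0.478 CPM (−2.37), and its call ended when either DMSO library was left out (adjusted p from 0.058 to 0.0672).

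Nodal pathway genes moved in both directions. Of 17 tested, 6 rose (35.3%) and 3 fell (17.6%, near the 15.5% of all genes), and 5 rises and the 3 falls held. The feedback antagonists rose. Lefty1 read 7.8 and 14.3 CPM in the ES libraries and 157 and 144 CPM in the DMSO libraries (log2 fold change 3.77 ± 0.39 SE, adjusted p = 0.000219). Lefty2 read 22.4 and 16.3 CPM in the ES libraries and 98 and 87.1 CPM in the DMSO libraries (log2 fold change 2.26 ± 0.22 SE, adjusted p = 0.000169). Inhba, the activin A subunit, had 0 and 0 counts in the ES libraries and 27 and 23 in the DMSO libraries, at least 13.3-fold higher against a floor of 3 counts over the ES group. Inhbb, the activin B subunit, moved the other way, from 114 and 134 CPM to 9.9 and 10 CPM (log2 fold change −3.63 ± 0.30 SE, adjusted p = 6.91e-05). Pcsk6, a protease that matures Nodal, fell from 119 and 165 CPM to 34.5 and 33.8 CPM (−2.06).

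A BMP ligand, an antagonist and target genes were higher. Of 18 tested, 8 rose (44.4%) and 1 fell, and all 9 calls held. Bmp2 had 3 and 3 counts in the ES libraries and 105 and 83 in the DMSO libraries, which is 25.1 times the ES level (95% counting interval 11.5 to 68.4). Nog, the gene of the antagonist Noggin, rose from 0.266 and 0.196 CPM to 3.42 and 3.97 CPM (log2 fold change 3.96 ± 0.34 SE, adjusted p = 8.78e-05). The Id genes are direct targets, and Id3 read 8.42 and 14.6 CPM in the ES libraries and 95.1 and 96.2 CPM in the DMSO libraries (log2 fold change 3.05 ± 0.29 SE, adjusted p = 0.000128). Id2 rose from 4.61 and 2.89 CPM to 25.8 and 24.7 CPM (2.75). Msx2, a homeobox target, rose from 0.798 and 0.833 CPM to 13 and 13.8 CPM (4.03). Smad1, a transducer of the signal, fell from 45.6 and 41.3 CPM to 14.6 and 15.2 CPM (−1.54). The medium had held Noggin and BMP4 earlier in the protocol, and their part in these levels was not tested.

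Several Notch ligand genes and the retinoic acid carrier gene Crabp2 rose, and FGF genes moved in both directions. Of 19 FGF genes 6 rose (31.6%) and 4 fell (21.1%), against 15.5% each way of all genes tested, and 5 rises and 1 fall held. Fgf8, a ligand of the streak, had 1 and 1 counts in the ES libraries and 179 and 98 in the DMSO libraries, which is 111 times the ES level (95% counting interval 30.7 to 916). The receptor gene Fgfr2 rose from 6.12 and 2.94 CPM to 28.8 and 30.4 CPM (2.70, 3.34 without ES replicate 1). Fgfr4, another receptor, fell from 4.21 and 7.2 CPM to 0.825 and 1.48 CPM (−2.33). Of 14 Notch genes 6 rose, all of which held, and 1 fell, with a median change of 1.09. Among the rises were the ligand genes Dll1, Dll3, Jag1 and Jag2. Dll3 rose from 0.798 and 1.27 CPM to 10.8 and 9.8 CPM (log2 fold change 3.31 ± 0.30 SE, adjusted p = 0.000111). Jag2 rose from 10.3 and 14 CPM to 36.4 and 36.3 CPM (1.58). Lfng, which modifies the receptor, rose from 0.665 and 1.18 CPM to 9.9 and 9.7 CPM (3.42). The DMSO replicates of these 3 genes differed by less than the gap to either ES library. Dll1 read 0.354 and 0.735 CPM in the ES libraries and 14.2 and 13.8 CPM in the DMSO libraries (4.68, 5.28 without ES replicate 2). Hes1, a target in many tissues, was the member that fell, from 33.5 and 36 CPM to 15 and 17 CPM (−1.12), and its call ended when DMSO replicate 1 was left out (adjusted p = 0.0519). Of 13 retinoic acid genes 4 rose (30.8%), all of which held, and 2 fell (15.4%, near the 15.5% of all genes). Crabp2, which carries retinoic acid to its receptors, rose from 1.15 and 2.2 CPM to 15 and 14.9 CPM (3.16). Aldh1a3, a synthesis gene, rose from 0.222 and 0.294 CPM to 1.53 and 1.48 CPM (2.53). Stra8, a retinoic acid target of germ cells, read 178 and 141 CPM in the ES libraries and 41.6 and 40.4 CPM in the DMSO libraries (−1.96), and its call ended when either DMSO library was left out (adjusted p from 0.0768 to 0.0823). The receptor gene Rarg read 201 and 302 CPM in the ES libraries and 143 and 150.3 CPM in the DMSO libraries (−0.78), and its call ended when ES replicate 2, either DMSO library or either TCDD library of 96 h was left out (adjusted p from 0.0624 to 0.191).

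Several primitive streak markers rose to low levels. Of 14 tested, 6 rose and 2 fell, and 5 rises held. Evx1, a homeobox gene of the posterior streak, rose from 0.266 and 0.245 CPM to 5.17 and 4.83 CPM (log2 fold change 4.26 ± 0.63 SE, adjusted p = 0.00144). Sp5, a Wnt target of the streak, had 1 and 2 counts in the ES libraries and 119 and 78 in the DMSO libraries, which is 52.6 times the ES level (95% counting interval 18 to 255). Its fitted change was 5.62, and 6.23 without ES replicate 2. Foxa2, of the anterior streak and endoderm, had 3 and 2 counts in the ES libraries and 35 and 26 in the DMSO libraries, which is 9.78 times the ES level (95% counting interval 4.19 to 30.1). T (Brachyury), the standard streak marker, read 0.177 and 0.441 CPM in the ES libraries and 2.23 and 2.34 CPM in the DMSO libraries (2.89, adjusted p = 0.0158). Its call ended when either DMSO library was left out (adjusted p from 0.053 to 0.0537), and its estimate was 3.65 without ES replicate 2. Each of these 4 genes stayed under 8 CPM in DMSO cells.

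Other lineages were mixed. Of 14 trophoblast genes 7 rose (50%) and 1 fell, and 6 rises and the fall held. Cdx2, of trophectoderm and posterior mesoderm, rose from 0.177 and 0.196 CPM to 4.13 and 4.21 CPM (log2 fold change 4.45 ± 0.37 SE, adjusted p = 7.45e-05). Gata2 rose from 1.33 and 1.18 CPM to 11.5 and 10.8 CPM (3.15). Hand1, of trophoblast and heart, rose from 2.35 and 4.02 CPM to 18.8 and 17 CPM (log2 fold change 2.50 ± 0.33 SE, adjusted p = 0.000819). All 3 stayed under 20 CPM in DMSO cells. Of 21 primitive and visceral endoderm genes 8 fell and 5 rose, and 4 falls and 3 rises held. Sox7, an endoderm and vascular factor, fell from 5.8 and 4.51 CPM to 0.825 and 1.1 CPM (−2.43). Cubn, the endoderm receptor cubilin, fell from 5.5 and 6.51 CPM to 0.519 and 0.621 CPM (−3.40, −3.48 with the offset, −4.45 with the median GC content of its transcripts). Of 13 neural genes 5 rose and 3 fell. Nes, the intermediate filament of neural and other progenitors, rose from 6.2 and 4.16 CPM to 45 and 47.8 CPM (log2 fold change 3.16 ± 0.26 SE, adjusted p = 6.82e-05). Sox1, of the neural plate, fell from 18.7 and 20 CPM to 3.73 and 4.01 CPM (log2 fold change −2.32 ± 0.21 SE, adjusted p = 0.000118).

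Endothelial genes were mixed. Of 12 tested, 4 rose and 6 fell, and the 4 rises and 1 fall held. Etv2, the factor that starts the lineage, rose from 0.842 and 1.08 CPM to 5.1 and 4.63 CPM (log2 fold change 2.34 ± 0.31 SE, adjusted p = 0.000815). Kdr, a receptor for VEGF, rose from 0.31 and 0.294 CPM to 2.26 and 2.34 CPM (2.91). Flt1, another such receptor, had 2 and 4 counts in the ES libraries and 250 and 169 in the DMSO libraries, which is 56 times the ES level (95% counting interval 25.7 to 152). Its fitted change was 5.76, and 6.39 without ES replicate 2. These 3 genes stayed under 10 CPM. Vwf, of mature endothelium, fell from 9.93 and 15.4 CPM to 1.04 and 1.1 CPM (log2 fold change −3.56 ± 0.54 SE, adjusted p = 0.00152). The summed level of the 14 listed genes was 261 and 371 CPM in ES cells and 204 and 202 CPM in DMSO cells, of which the largest part was Pecam1, a gene that ES cells also express. Of 9 blood and macrophage genes 2 rose (22.2%) and held and 1 fell (11.1%), shares near the 15.5% of all genes called each way. Runx1, a blood factor, rose from 0.443 and 0.49 CPM to 7 and 7.65 CPM (3.96). Tal1, another, rose from 0.177 and 0.245 CPM to 1.5 and 1.67 CPM (2.88). Of 39 Hox genes, which pattern the body axis, 30 had a mean under 1 CPM in DMSO cells. Of the 24 tested, 7 rose and 3 fell, and the rises that held were Hoxb1, Hoxb2 and Hoxb3, all of the Hoxb cluster. Hoxb1 had 0 and 1 counts in the ES libraries and 84 and 53 in the DMSO libraries, which is 109.8 times the ES level (95% counting interval 19.7 to 4336). The fitted change was 6.49, against 5.57 without ES replicate 1.

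Most contractile and smooth muscle genes tested rose. Of 20 tested, 14 rose (70%) and 0 fell, with a median change of 1.95, and 12 of the rises held. Acta2, smooth muscle actin, read 1.46 and 1.91 CPM in the ES libraries and 285 and 282 CPM in the DMSO libraries (log2 fold change 7.39 ± 0.47 SE, adjusted p = 2.62e-05). Tagln, the actin-binding protein transgelin, read 2.97 and 4.85 CPM in the ES libraries and 277 and 266 CPM in the DMSO libraries (log2 fold change 6.12 ± 0.31 SE, adjusted p = 1.44e-05). Cnn1, calponin of smooth muscle, read 0.532 and 0.539 CPM in the ES libraries and 25.7 and 24.3 CPM in the DMSO libraries (log2 fold change 5.53 ± 0.33 SE, adjusted p = 2.22e-05). These 3 genes were near 0 to 5 CPM in ES cells and their DMSO replicates nearly coincided. Cnn2, a calponin of many cell types, rose from 17.4 and 24.1 CPM to 208 and 206 CPM (3.32). Myl9, a myosin light chain, rose from 1.11 and 1.32 CPM to 28.8 and 28.4 CPM (4.55). Tpm1, tropomyosin 1, rose from 69.5 and 78.3 CPM to 503 and 514 CPM (2.78). The actin genes encode nearly identical proteins, so reads may be split among them.

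Many genes of the contractile cytoskeleton carry the CArG box, the site of serum response factor, near their start. The 250 bases before the RefSeq starts (GRCm38.p6) were searched for exact matches to this box (CC, then 6 bases that are each A or T, then GG), which is the same motif on both strands. Boxes that differ from it by a base were not searched for, and a window without a match may hold one. An exact match was in 439 of 27025 genes with such a window (1.62%) and in 3 of 17 genes of the contractile list (17.6%), those of Cnn2, Myl9 and Vcl. The windows of these 3 genes are printed with the box in capitals. All 3 were among the 14 of 20 list members called higher (70%). Only 17 of the 20 had a window, and the others, Tagln among them, were not searched. The windows of Acta2, Cnn1 and Tpm1, which also rose, held no exact match.
Cnn2, chr10:79988350-79988599, + strand: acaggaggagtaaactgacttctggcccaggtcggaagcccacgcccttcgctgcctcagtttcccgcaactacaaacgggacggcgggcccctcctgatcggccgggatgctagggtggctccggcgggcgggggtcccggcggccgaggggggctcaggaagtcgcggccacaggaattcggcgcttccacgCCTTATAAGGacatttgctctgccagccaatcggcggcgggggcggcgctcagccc
Myl9, chr2:156775214-156775463, + strand: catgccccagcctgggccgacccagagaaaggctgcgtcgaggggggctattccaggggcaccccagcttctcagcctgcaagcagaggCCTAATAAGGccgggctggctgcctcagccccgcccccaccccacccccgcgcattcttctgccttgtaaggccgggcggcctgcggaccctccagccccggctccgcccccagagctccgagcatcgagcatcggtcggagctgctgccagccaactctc
Vcl, chr14:20929148-20929397, + strand: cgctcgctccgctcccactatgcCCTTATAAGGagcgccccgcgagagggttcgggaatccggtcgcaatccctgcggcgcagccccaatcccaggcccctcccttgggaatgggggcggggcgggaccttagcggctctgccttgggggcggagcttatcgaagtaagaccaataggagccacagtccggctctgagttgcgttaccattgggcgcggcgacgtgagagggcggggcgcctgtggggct
The box begins 56 bases before the start in Cnn2, 161 in Myl9 and 227 in Vcl. Vcl, which encodes the adhesion protein vinculin, read 104 and 74.2 CPM in the ES libraries and 136 and 150.0 CPM in the DMSO libraries (log2 fold change 0.68 ± 0.21 SE, adjusted p = 0.0379). It was named after its values were seen, and its call ended when ES replicate 2, either DMSO library or either TCDD library of 24 or 96 h was left out (adjusted p from 0.0555 to 0.211). Among genes tested with a window, 2.02% of those that rose and 0.972% of those that fell contained the box, against 1.42% of all tested.

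Some heart muscle genes rose from a low base, and most did not pass the test. Of 21 sarcomere genes tested, 9 rose, 1 fell and 11 did not pass, with a median change of 1.14, and 5 rises and the fall held. Myh6, the alpha chain of cardiac myosin, read 2.04 and 1.47 CPM in the ES libraries and 8.19 and 9.7 CPM in the DMSO libraries (log2 fold change 2.34 ± 0.25 SE, adjusted p = 0.000262). Myh7, the beta chain, read 0.487 and 0.539 CPM in the ES libraries and 9.78 and 9.32 CPM in the DMSO libraries (log2 fold change 4.21 ± 0.52 SE, adjusted p = 0.000526). Both were above their ES libraries and under 10 CPM. Cryab, the small heat shock protein of muscle, rose from 4.3 and 8.18 CPM to 36.3 and 35.2 CPM (log2 fold change 2.52 ± 0.37 SE, adjusted p = 0.00143). Tnnt2, cardiac troponin T, had 3 and 0 counts in the ES libraries and 11 and 15 in the DMSO libraries (adjusted p = 0.0386), and its call ended when ES replicate 2, either DMSO library or either TCDD library of 24 or 96 h was left out (adjusted p from 0.0611 to 0.22). Mypn, a protein of the Z-disc and of filopodia, was the member that fell, from 24.1 and 28.7 CPM to 1.25 and 1.1 CPM (log2 fold change −4.47 ± 0.26 SE, adjusted p = 1.82e-05). Among the 20 factors that control heart development, 6 were called higher, 2 lower and 12 neither, and 3 and 1 of the calls held. Irx4, of the ventricle, rose from 0.222 and 0.245 CPM to 3 and 4.01 CPM (log2 fold change 3.88 ± 0.37 SE, adjusted p = 0.000135). Prdm16, a chromatin factor of the heart and brown fat, fell from 19.6 and 17 CPM to 4.58 and 4.54 CPM (edgeR adjusted p = 0.00242). Myocd, the muscle cofactor of serum response factor, had 1 and 1 counts in the ES libraries and 13 and 7 in the DMSO libraries, and its call ended when ES replicate 2 or either DMSO library was left out (adjusted p from 0.0532 to 0.089). Of 13 channel and calcium handling genes 3 rose, all of which held, 0 fell and 10 did not pass. Jph2, which ties the cell membrane to calcium stores, rose from 1.64 and 2.4 CPM to 18.2 and 18.5 CPM (3.19). Gja1, connexin 43, rose from 133 and 76.1 CPM to 292 and 302 CPM (1.51, 0.96 with the offset), and its call ended in the fit to these 4 libraries alone (adjusted p = 0.0501).

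**Figure D4:**
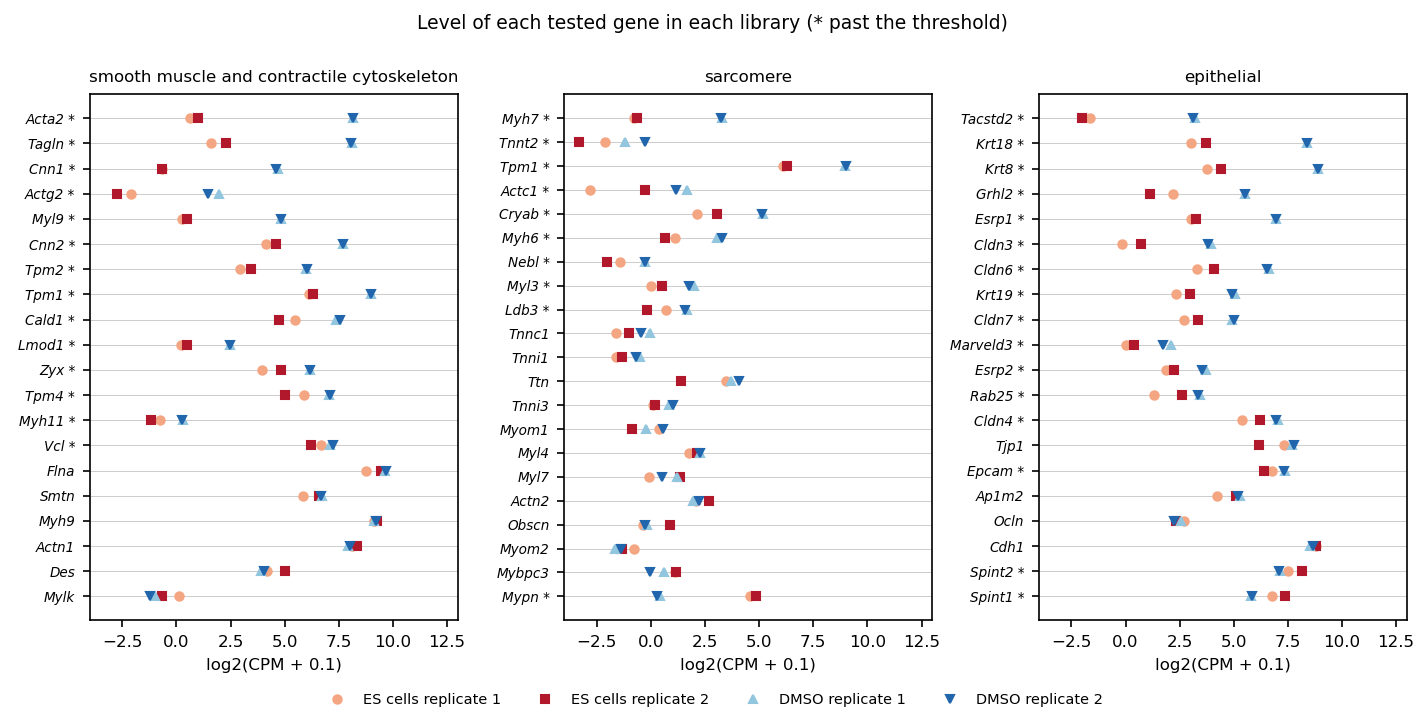
Level of each tested member of the contractile, sarcomere and epithelial lists in each library (x axis, log2 of CPM + 0.1), with ES replicates as circles and squares and DMSO replicates as triangles; an asterisk marks an adjusted p under 0.05. Acta2, Tagln, Krt8 and Krt18 reach 8 to 9 on this scale in DMSO cells, while of the sarcomere genes only Tpm1, which is expressed in many cell types, does so.

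Most epithelial genes tested rose. Of 20 tested, 14 rose (70%) and 2 fell, with a median change of 1.69, and 11 rises and 1 fall held. The keratins of simple epithelia, Krt8 and Krt18, which pair in filaments, were among the most abundant. Krt8 read 13.3 and 21.2 CPM in the ES libraries and 475 and 468 CPM in the DMSO libraries (log2 fold change 4.77 ± 0.37 SE, adjusted p = 5.61e-05). Krt18 read 7.98 and 13.2 CPM in the ES libraries and 328 and 328 CPM in the DMSO libraries (log2 fold change 4.95 ± 0.40 SE, adjusted p = 6.43e-05). Krt18 has processed copies to which reads may belong. Esrp1, a splicing factor of epithelia, rose from 8.11 and 9.55 CPM to 124 and 123 CPM (log2 fold change 3.80 ± 0.20 SE, adjusted p = 1.44e-05). Grhl2, a factor that sustains epithelial junctions, rose from 4.43 and 2.06 CPM to 45.4 and 46.2 CPM (3.81, 4.48 without ES replicate 1). Cldn6, a tight junction protein of early embryos, rose from 9.79 and 16.7 CPM to 98.3 and 91.4 CPM (2.84). Spint1, a membrane protease inhibitor named after its values were seen, was the fall that held, from 108 and 165 CPM to 56 and 57 CPM (−1.27).

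Mesenchymal and matrix genes rose more often than they fell. Of 14 mesenchymal factors 7 rose, 0 fell and 7 did not pass, and 5 rises held. Cdh2, N-cadherin, rose from 1.06 and 0.588 CPM to 8.07 and 10.6 CPM (log2 fold change 3.48 ± 0.33 SE, adjusted p = 0.000149). Snai1, a repressor of epithelial genes, rose from 1.64 and 2.84 CPM to 6.75 and 7.12 CPM (log2 fold change 1.63 ± 0.30 SE, adjusted p = 0.00385). Zeb2, a second repressor, rose from 0.133 and 0.196 CPM to 4.34 and 5.64 CPM (4.89). Its change was 4.11 with the offset and 4.955 with the median GC content of its transcripts. Among 18 genes of fibroblasts and matrix, 11 rose (61.1%) and 4 fell, and 9 rises and 2 falls held. Col1a2, of collagen I, rose from 1.11 and 0.784 CPM to 21.3 and 23 CPM (log2 fold change 4.54 ± 0.44 SE, adjusted p = 0.00015). Col3a1, of collagen III, rose from 0.266 and 0.196 CPM to 3.82 and 5.74 CPM (4.33). Col5a1, of collagen V, rose from 5.5 and 5.83 CPM to 38.5 and 44.2 CPM (2.87). All 3 chains were at least 4-fold above the higher ES library. Postn, the matrix protein periostin, had 1 and 1 counts in the ES libraries and 93 and 68 in the DMSO libraries. That is 64.5 times the ES level (95% counting interval 17.9 to 533). Its fitted change was 5.88 without the offset, 4.55 with it and 5.22 with the median GC content of its transcripts. The falls that held were those of Fn1 and Col5a2. Fn1, fibronectin, the most abundant gene of the list in all 4 libraries, fell from 1252 and 1574 CPM to 568 and 617 CPM (log2 fold change −1.25 ± 0.22 SE, adjusted p = 0.00352). Col5a2, another chain of collagen V, fell from 2.3 and 2.01 CPM to 0.306 and 0.239 CPM (−2.94). The summed level of the 20 listed genes was 1311 and 1655 CPM in ES cells and 719.6 and 791 CPM in DMSO cells, lower while the median change was 1.83. Of 16 targets of YAP and TEAD, which respond to adhesion and tension, 9 rose and 0 fell, and 8 held. Ctgf, a matricellular growth factor, rose from 19.4 and 24.2 CPM to 122 and 132 CPM (log2 fold change 2.54 ± 0.24 SE, adjusted p = 0.000146). Tgfb2, a TGF-beta ligand, rose from 0.399 and 0.294 CPM to 8.71 and 10.8 CPM (4.78). Axl, a receptor kinase, rose from 1.33 and 1.42 CPM to 16.3 and 18 CPM (3.64).

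Basement membrane chains moved in both directions. Of 18 tested, 7 rose and 7 fell, and 3 rises and 2 falls held. Lama1, the laminin alpha chain of early embryos, fell from 66.1 and 71.4 CPM to 15.9 and 16 CPM (log2 fold change −2.11 ± 0.20 SE, adjusted p = 0.000121). Lamc1, a gamma chain shared by most laminins, fell from 586 and 607 CPM to 234 and 255 CPM (log2 fold change −1.29 ± 0.19 SE, adjusted p = 0.00142). Lamb1, the beta chain that pairs with them, rose from 76.9 and 84.8 CPM to 167 and 176 CPM (log2 fold change 1.08 ± 0.20 SE, adjusted p = 0.00428). Col4a5, a collagen IV chain of the X chromosome, rose from 0.576 and 0.343 CPM to 7.67 and 9.41 CPM (4.19), and its neighbour Col4a6 had 3 and 2 counts in the ES libraries and 29 and 23 in the DMSO libraries, which is 8.33 times the ES level (95% counting interval 3.57 to 25.7). Of 15 integrin genes 4 fell and 1 rose, and 1 of each held. Itga5, the fibronectin receptor, fell from 172 and 283 CPM to 59.3 and 58.4 CPM (log2 fold change −1.95 ± 0.33 SE, adjusted p = 0.00288). Itgb8, which activates TGF-beta, had 0 and 0 counts in the ES libraries and 27 and 10 in the DMSO libraries, at least 9.88-fold higher against a floor of 3 counts over the ES group.

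Genes of the amino acid and unfolded protein responses were mostly lower. Of 18 tested, 11 fell (61.1%) and 3 rose, with a median change of −1.41, and 9 falls and 0 rises held. Chac1, a glutathione-degrading target of Atf4, read 39.3 and 64.9 CPM in the ES libraries and 5.75 and 5.59 CPM in the DMSO libraries (log2 fold change −3.20 ± 0.31 SE, adjusted p = 0.00015). Trib3, a pseudokinase of the same response, fell from 101 and 183 CPM to 20 and 18 CPM (log2 fold change −2.90 ± 0.31 SE, adjusted p = 0.00025). Ddit3 (CHOP) fell from 15.6 and 16.8 CPM to 3.03 and 3.11 CPM (−2.40). Slc7a5, a transporter of large amino acids and an abundant member, read 794 and 1258 CPM in the ES libraries and 229 and 236 CPM in the DMSO libraries (log2 fold change −2.15 ± 0.27 SE, adjusted p = 0.000577). Its ES replicates differed, with both far above the DMSO libraries. Of 17 genes of serine, glycine and threonine metabolism 10 fell (58.8%) and 1 rose, and 3 falls held. Shmt2, mitochondrial serine hydroxymethyltransferase, fell from 477 and 891 CPM to 194 and 188 CPM (log2 fold change −1.84 ± 0.30 SE, adjusted p = 0.00243). Mthfd2, the next enzyme of the folate cycle, fell from 233 and 244 CPM to 105 and 100.4 CPM (log2 fold change −1.21 ± 0.20 SE, adjusted p = 0.00243). Aldh1l2, a later mitochondrial folate enzyme, fell from 9.84 and 4.95 CPM to 0.917 and 1.1 CPM (−2.88, −2.29 without ES replicate 1).

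Lipid and mitochondrial genes fell more often than they rose. Of 19 fatty acid oxidation genes 9 fell (47.4%) and 0 rose, and 2 held. Cpt1a, which admits fatty acids to mitochondria, read 179.6 and 177 CPM in the ES libraries and 16.4 and 15.2 CPM in the DMSO libraries (log2 fold change −3.50 ± 0.19 SE, adjusted p = 1.59e-05). Slc25a20, the carnitine carrier, fell from 205 and 311 CPM to 73.6 and 69.6 CPM (log2 fold change −1.85 ± 0.34 SE, adjusted p = 0.0038). Both are steps of the import of fatty acids by carnitine. Of 24 cholesterol synthesis genes 11 fell (45.8%) and 1 rose, and 3 falls and the rise held. Msmo1, a sterol demethylase, fell from 153 and 114 CPM to 54.7 and 54 CPM (log2 fold change −1.29 ± 0.20 SE, adjusted p = 0.00172). Of 16 fatty acid synthesis genes 6 fell and 1 rose, and 1 fall held, that of Acacb, a mitochondrial acetyl-CoA carboxylase, from 88.2 and 128 CPM to 28.3 and 30.9 CPM (log2 fold change −1.87 ± 0.24 SE, adjusted p = 0.000641). Of 25 respiratory chain genes 10 fell (40%) and 1 rose, and 1 fall held. It was that of Cox5a, a cytochrome oxidase subunit, from 382 and 613 CPM to 185 and 165 CPM (−1.51, −2.40 with the offset, −1.55 with the median GC content of its transcripts). Cox4i1, another subunit, read 841 and 1803 CPM in the ES libraries and 518 and 464 CPM in the DMSO libraries (−1.43, −0.78 without ES replicate 2), and its call ended when ES replicate 2 or either DMSO library was left out (adjusted p from 0.0527 to 0.108).

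Glycolysis genes moved in both directions. Of 23 tested, 6 rose (26.1%) and 2 fell (8.7%), against 15.5% each way of all genes tested, and 2 rises and 1 fall held. Slc16a3, the lactate exporter, rose from 8.33 and 16 CPM to 123 and 117 CPM (log2 fold change 3.31 ± 0.39 SE, adjusted p = 0.000395). Pfkfb3, which raises the activator of phosphofructokinase, rose from 4.08 and 3.48 CPM to 37.2 and 38.9 CPM (log2 fold change 3.33 ± 0.21 SE, adjusted p = 2.62e-05). Pfkp, a form of phosphofructokinase itself, fell from 224 and 269.5 CPM to 89.5 and 85.2 CPM (log2 fold change −1.50 ± 0.19 SE, adjusted p = 0.000548). Slc2a1, the glucose transporter, was at 324 and 493 CPM in ES cells and 856 and 858 CPM in DMSO cells (1.07), and its call ended when either DMSO library was left out (adjusted p from 0.0751 to 0.0767). Of 16 oxidant response genes 5 rose and 0 fell, and the metallothionein genes Mt1 and Mt2 held. Mt2 read 57 and 92.1 CPM in the ES libraries and 340.2 and 318 CPM in the DMSO libraries (log2 fold change 2.14 ± 0.26 SE, adjusted p = 0.000476). Mt1 read 32.7 and 60.8 CPM in the ES libraries and 195 and 184 CPM in the DMSO libraries (log2 fold change 2.02 ± 0.33 SE, adjusted p = 0.00229). Gclm, a subunit of the enzyme that makes glutathione, read 72.8 and 68.4 CPM in the ES libraries and 132 and 129 CPM in the DMSO libraries (0.89). Its change was 0.21 with the offset (adjusted p = 0.625) but 0.79 with the median GC content of its transcripts. Its size with the offset therefore rests on which transcript is taken. The call ended when either DMSO library was left out, with changes of 0.88 without replicate 1 and 0.91 without replicate 2.

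Regulators of G1 and S phase moved in both directions. Of 23 tested, 8 rose (34.8%) and 5 fell (21.7%), against 15.5% each way of all genes tested, and 5 rises and 2 falls held. Ccnd2, cyclin D2, read 1.37 and 0.93 CPM in the ES libraries and 36.6 and 39.3 CPM in the DMSO libraries (log2 fold change 5.03 ± 0.27 SE, adjusted p = 1.57e-05). Ccnd3, cyclin D3, fell from 533 and 887 CPM to 256 and 246 CPM (log2 fold change −1.50 ± 0.28 SE, adjusted p = 0.0045). The pair of cyclins thus moved in opposite directions. So did a pair of kinase inhibitors. Cdkn2b rose from 0.931 and 1.27 CPM to 11.1 and 13 CPM (3.45). Cdkn1b (p27) fell from 40.5 and 46 CPM to 15.7 and 15.5 CPM (−1.47, −2.01 with the offset, −2.15 with the median GC content of its transcripts). Myc rose from 15.4 and 18.7 CPM to 48.9 and 52.6 CPM (log2 fold change 1.57 ± 0.20 SE, adjusted p = 0.000674). Mycn rose from 110.1 and 83.8 CPM to 245 and 255 CPM (log2 fold change 1.37 ± 0.20 SE, adjusted p = 0.00111). Of 20 replication and mitosis genes 1 rose (5%) and 3 fell (15%), against the same 15.5%, and 0 held. Of 18 p53 targets 2 rose (11.1%) and 4 fell (22.2%), shares near the 15.5% of all genes called each way, and 2 falls held. Gdf15, a stress cytokine, fell from 15.6 and 27.1 CPM to 1.41 and 1.58 CPM (−3.84). Ei24, an endoplasmic reticulum protein, fell from 259 and 342 CPM to 123 and 119.5 CPM (−1.31).

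Imprinted genes rose more often than they fell, and calls among genes of DNA methylation were near the share over all genes. Of 21 DNA methylation genes 5 rose (23.8%) and 4 fell (19%), against 15.5% each way of all genes tested, and 4 rises held. Besides Dnmt3a and Dnmt3b, Gadd45g, a stress gene linked to demethylation, rose from 0.576 and 1.08 CPM to 23.8 and 21.3 CPM (log2 fold change 4.77 ± 0.37 SE, adjusted p = 5.45e-05). Tet3, a methylcytosine oxidase, rose from 7.18 and 5.53 CPM to 15.3 and 18 CPM (1.39). Of 22 polycomb genes 1 rose (4.55%) and 5 fell (22.7%), against the same 15.5%, and 0 held. Of 24 imprinted genes 12 rose (50%) and 1 fell, with a median change of 1.66, and 8 rises and the fall, that of Grb10, held. Igf2 read 13.6 and 13.2 CPM in the ES libraries and 295 and 306 CPM in the DMSO libraries (log2 fold change 4.49 ± 0.22 SE, adjusted p = 1.39e-05). H19, its oppositely imprinted neighbour, rose from 48.1 and 68.2 CPM to 235 and 227 CPM (log2 fold change 1.99 ± 0.26 SE, adjusted p = 0.000781). Mest rose from 22.5 and 21.8 CPM to 159.9 and 161 CPM (log2 fold change 2.85 ± 0.18 SE, adjusted p = 2.62e-05). Peg10, a placental gene of retrotransposon origin, rose from 207 and 134 CPM to 789.9 and 886 CPM (log2 fold change 2.29 ± 0.27 SE, adjusted p = 0.000415). The paternally expressed Igf2 and the maternally expressed H19 were thus both higher, and the alleles were not measured.

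Interferon, immediate early and germline genes moved in both directions. Of 18 genes of antigen presentation and interferon 7 rose (38.9%) and 4 fell (22.2%), against 15.5% each way of all genes, and 4 rises held. Psmb8, a subunit of the immunoproteasome, had 2 and 3 counts in the ES libraries and 108 and 65 in the DMSO libraries, which is 27.7 times the ES level (95% counting interval 11.9 to 85.4). Ifitm1, an antiviral membrane protein also found on early embryonic cells, rose from 28.4 and 40.4 CPM to 165 and 171 CPM (2.29). Of 18 immediate early genes 8 rose (44.4%) and 3 fell (16.7%, near the 15.5% of all genes), and 6 rises and 1 fall held. Fosl2, an AP-1 subunit, rose from 1.42 and 1.81 CPM to 16.4 and 18.8 CPM (log2 fold change 3.44 ± 0.24 SE, adjusted p = 3.13e-05). Jun rose from 8.51 and 8.28 CPM to 19.2 and 24.4 CPM (1.37). Jund fell from 275 and 504 CPM to 121 and 129.8 CPM (−1.64). Of 9 genes of the pathway of AHR, the receptor of TCDD, 2 rose (22.2%) and held and 1 fell (11.1%). These shares were near the 15.5% of all genes called each way, and the median change was −0.21. Cyp1b1, a P450 that the receptor induces, rose from 0.665 and 0.392 CPM to 5.56 and 5.97 CPM (3.42). Ahr itself rose from 2.66 and 0.686 CPM to 10.8 and 10.6 CPM (2.66, 3.96 without ES replicate 1 and 2.01 without ES replicate 2), and its call ended in the fit to these 4 libraries alone (adjusted p = 0.0577). Of 25 germline genes 9 rose and 8 fell, and 4 rises and 2 falls held. Kit, the receptor of germ cells and other stem cells, fell from 147 and 133 CPM to 51.1 and 52.8 CPM (log2 fold change −1.43 ± 0.18 SE, adjusted p = 0.000654). Piwil2, of the piRNA pathway, fell from 82.5 and 88.1 CPM to 20.5 and 21.4 CPM (log2 fold change −2.02 ± 0.32 SE, adjusted p = 0.00182). Tdrd1, a partner of that pathway, rose from 1.11 and 1.08 CPM to 4.03 and 3.82 CPM (log2 fold change 1.84 ± 0.30 SE, adjusted p = 0.00222). Of 10 genes of the 2-cell stage 0 rose and 2 fell (20%), against 15.5% each way of all genes tested, and 0 held. Of 9 nuclear and structural RNA genes 1 rose (11.1%) and held and 0 fell. It was Snhg1, a host of small nucleolar RNAs, from 12.9 and 6.02 CPM to 48.7 and 50.8 CPM (2.39, 1.60 with the offset, 3.05 without ES replicate 1).

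**Figure D5:**
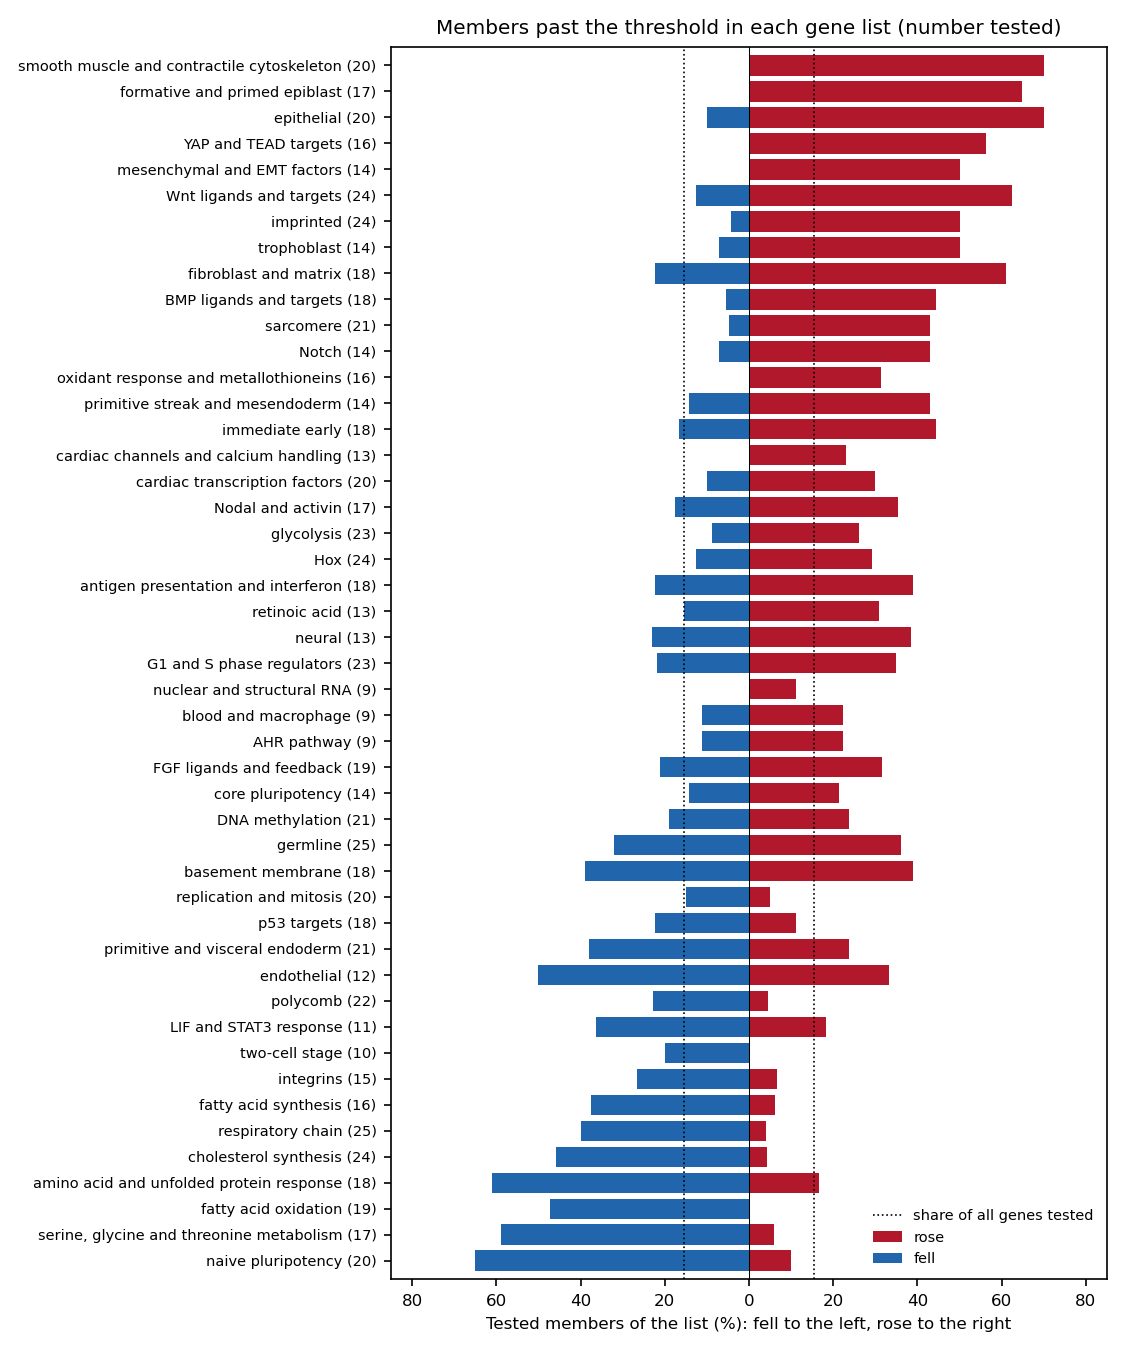
Percent of the tested members of each of 47 gene lists that rose (red, to the right) or fell (blue, to the left) in DMSO relative to ES cells, with the number tested in brackets and dotted lines at the 15.5% of all genes tested that rose or fell. The contractile and epithelial (70%), formative (64.7%) and Wnt (62.5%) lists reach furthest to the right, and naive pluripotency (65%), the amino acid and unfolded protein response (61.1%) and serine metabolism (58.8%) furthest to the left.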

How the data were processed

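The deposited values are raw read counts per gene, whole numbers in 1 table for the 10 libraries. Per the labels' protocols, polyadenylated RNA was extracted with TRIzol, made into strand-marked libraries by dUTP incorporation and sequenced as single reads. Per the submitters' processing notes the tools were TopHat, CASAVA 1.8, bcl2fastq and edgeR, with build mm10. No source used here states the counting tool, its strand setting or its gene annotation, so reads of a gene and an antisense or overlapping partner, or of near-identical copies, may be mixed. The row that names no gene held 0.000201 to 0.00285% of counts and was left out.

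From these counts, edgeR 4.0.16 (R 4.3.3) scaled libraries by TMM, kept 15175 of 24540 genes (61.8%) with filterByExpr and fitted all 10 libraries in 5 groups with the robust quasi-likelihood test (5 residual degrees of freedom, Benjamini-Hochberg adjusted p under 0.05). A gene without a count in the 4 libraries compared lay under 0.0962 to 0.152 CPM, a limit that covers counting error only. It is the level of 3 counts at the total counts of each library, without the TMM factor. With the factor, as in the levels given above, 3 counts were 0.133 CPM in ES replicate 1 and 0.147 CPM in ES replicate 2. The GC offset was the loess trend (span 0.3) of each library's log2 CPM over the GC content of the longest GENCODE M21 transcript, known for 99.49% of genes tested. The longest transcript need not be the one expressed. Promoter bases came from RefSeq starts on GRCm38.p6.

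The gene lists, the question of GC content and the genes named were chosen with earlier results of these data known. Named genes are 20 set genes, the 12 largest rises and falls, the 12 largest among genes of at least 200 CPM, the 6 or fewer members of each list with the lowest p, members counted alone against their list, and genes whose estimate the GC offset moved most. Esrrb, Spic, Vcl, Spint1, Pecam1, Fn1 and Col5a2 were named after their values were seen, or were counted alone against their list. A few of these genes are left out here. DESeq2 1.42.0, limma 3.58.1 with voom, other scalings, filters, thresholds and libraries left out were alternatives. The test was tried on simulated counts. The replicate numbers come without a stated pairing of the samples. The ES and DMSO replicate differences had r = −0.125 across 15175 genes, which are not independent. That value cannot settle pairing, because the ES difference followed GC content and the DMSO difference hardly did.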

Additional observations from a re-analysis of the deposited data

How the results depend on the processing

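The counts, 2349 higher and 2348 lower, stayed within 1.5 times under RLE scaling (2349 and 2384), upper quartile scaling (2421 and 2200), no low-count filter (2251 and 2214), at least 1 CPM in 2 libraries (2150 and 2234), DESeq2 (2593 and 2416), limma-voom (2568 and 2328), removal of structural RNA genes (2356 and 2365), the GC offset (3174 and 3003) and a 2-fold minimum (2068 and 1566, the latter at the edge of that range). Fitted to the 4 libraries compared alone, the counts were 1338 and 999. Without 3 libraries that an earlier account of these data set apart (ES replicate 2 and the first TCDD replicate at 24 and at 72 h), they were 3946 and 4081. At an adjusted p under 0.01 they were 1243 and 1044. With 1 of the 10 libraries left out they ran from 1221 to 4134 and from 681 to 3602, lowest without a DMSO library and highest without ES replicate 1. Without DMSO replicate 1 or 2, 64.0 and 64.2% of calls were rises, against an even split. With the GC offset and a library of the comparison left out the rises ran from 1921 to 3749 (the latter without ES replicate 1) and the falls from 1372 to 3369, with 1409 without DMSO replicate 1 and 1372 without DMSO replicate 2. The causes of these shifts were not tested.

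The replicate block gave 1926 and 1802 calls, of which 1924 and 1799 were calls without it, and with the GC offset and the block 2866 and 2610. The replicate numbers are shared labels without a stated pairing. With the DMSO numbers crossed, chosen after seeing the data, the block gave 1965 and 1847 calls. With the median GC content over transcripts, also chosen after seeing the data, the offset gave 3159 and 3072.

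Estimates turned sign in 4 genes named. Lsm5 was at −0.91 with the GC offset, −0.90 with the offset and block, −0.99 with the offset and the 4 libraries alone, −0.76 with the median GC content, and with the offset and a library left out −1.2, −0.26, −0.95 and −0.66 (ES replicates 1 and 2, DMSO replicates 1 and 2). Gclm was at −0.13 with the offset and without ES replicate 1. Sox2, not called, was at −0.062 without the 3 libraries, and from −0.052 to 0.34 with 1 library left out. Zfp42, not called, was at −0.41 without the 3 libraries, from −0.40 to 0.67 with 1 library left out, at −0.049 with the median GC content and at −0.30 with the offset and without ES replicate 2.

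With 2 libraries a side, the error of each change rests on a spread shared with the TCDD groups. Genes under about 1 CPM rest on few counts, and the GC offset cannot separate library bias from a difference of the cells that follows GC content.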
